A study of Homo sapiens with 6 samples.

Results

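The Notch receptors, ligands and targets examined here are 10 genes chosen by symbol from a deposited table of 58735 genes: the receptors *NOTCH1*, *NOTCH2*, *NOTCH3* and *NOTCH4*, the ligands *JAG1*, *JAG2* and *DLL1*, and the transcriptional repressors *HES1*, *HEY1* and *HEYL*. The libraries came from TPC-1, a human papillary thyroid carcinoma cell line. There were 3 libraries of wild strain TPC-1, called controls below, and 3 of *RRM2*-OE-TPC-1 (the *RRM2*-OE line). The latter is TPC-1 infected with a lentivirus (vector LV18) and then selected with puromycin. In this vector a CMV promoter drives full-length *RRM2*, the gene of the small subunit of ribonucleotide reductase. In the *RRM2*-OE line, replicates 2 and 3 carry the genotype labels RRM3 and RRM4, while their titles give *RRM2*. The wild strain carried no vector, so the raised *RRM2*, the infection and the selection cannot be told apart in this comparison. The methods state biological triplicates without saying how the cultures were separated, and p-values measure the spread between these libraries. Values are FPKM, fragments scaled to gene length and to a depth factor of each library, so that genes can be ranked within a library.

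Notch receptors are single-pass membrane proteins that are cut during maturation and reach the cell surface as a heterodimer. A ligand of the Jagged or Delta-like family on a neighbouring cell pulls on the receptor, which exposes it to cleavage by an ADAM metalloprotease and then by the gamma-secretase complex. The released intracellular domain enters the nucleus, binds the DNA-binding protein RBPJ together with a Mastermind coactivator, and switches on target genes, of which *HES1* and *HEY1* are the best known. Fringe enzymes such as *LFNG* add sugars to the receptor that alter which ligands activate it. In epithelia the pathway takes part in the choice between proliferation and differentiation. In thyroid cancer it has been studied both as a growth-restraining and as a growth-promoting pathway.

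The upstream promoter stretches of 3 genes are shown because the results turn on *HES1*, which fell, on *NOTCH1*, which rose, and on *HES4*, a relative of *HES1* that rose. Each stretch is the 250 bases before the RefSeq transcription start on GRCh38.p14, written 5′ to 3′ on the strand of the gene, and capitals mark the letters TGGGAA, the core of the RBPJ binding motif. They lie at chr3:194135898-194136147 on the plus strand (*HES1*), chr1:1000098-1000347 on the minus strand (*HES4*) and chr9:136546049-136546298 on the minus strand (*NOTCH1*). The RefSeq starts need not equal the ends of the GENCODE gene models given further on.
HES1: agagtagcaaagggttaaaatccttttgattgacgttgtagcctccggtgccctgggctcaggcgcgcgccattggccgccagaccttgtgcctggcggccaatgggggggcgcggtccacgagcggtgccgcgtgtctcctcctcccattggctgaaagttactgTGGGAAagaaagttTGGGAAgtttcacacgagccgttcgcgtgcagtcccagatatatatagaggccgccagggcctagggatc
HES4: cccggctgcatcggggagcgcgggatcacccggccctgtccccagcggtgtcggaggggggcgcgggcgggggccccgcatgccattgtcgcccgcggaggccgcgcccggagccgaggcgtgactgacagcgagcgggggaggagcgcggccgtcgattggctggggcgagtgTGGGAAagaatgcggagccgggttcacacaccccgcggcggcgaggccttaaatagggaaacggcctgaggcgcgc
NOTCH1: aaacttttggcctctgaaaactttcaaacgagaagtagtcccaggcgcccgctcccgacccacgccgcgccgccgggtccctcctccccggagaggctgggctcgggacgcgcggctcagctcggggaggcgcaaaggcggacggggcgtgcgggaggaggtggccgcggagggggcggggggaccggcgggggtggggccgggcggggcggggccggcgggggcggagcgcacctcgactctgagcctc

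In a window that adds the first 50 transcribed bases, TGGGAA or its reverse complement was present in 24.0% of all 35116 RefSeq promoter windows, and the longer form GTGGGAA, which contains it, in 6.25%. The *HES1* window held 2 copies of TGGGAA, both on the strand of the gene, beginning 84 and 70 bases before the start, and the first of them was also a GTGGGAA. The *HES4* window held 1 copy, beginning 76 bases before the start, and it too was a GTGGGAA. Of the 8 members with a window in the table, *HES1* and *HEYL* held TGGGAA, and *NOTCH1*, *NOTCH2*, *NOTCH3*, *NOTCH4*, *JAG1* and *JAG2* did not. *DLL1* and *HEY1* had no window. The letters CACNAG on either strand, the N box that HES repressors bind, were in the windows of *HES1* and of all 4 receptors, that is 5 of the 8 members, against 38.0% of all windows. The *HES1* window held 4 such matches. These are matches of letters and not measured binding sites.

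The targeted gene was read first. *RRM2* was at 9.17, 9.05 and 8.52 FPKM in control replicates 1 to 3 and at 50.4, 47.5 and 47.2 FPKM in the *RRM2*-OE line, so that every library labelled as overexpressing was above every control. Reads on genes numbered 14317091 to 17084067 per library. Of the thyroid markers, *PAX8* was at 67.3 to 70.8 FPKM in the controls and 56.3 to 59.8 in the *RRM2*-OE line. In the same order, *FOXE1* was at 4.20 to 4.41 and 3.10 to 3.26, and *HHEX* at 2.34 to 2.54 and 4.47 to 4.81. *TG*, *TSHR* and *SLC5A5* were at 0.113 FPKM or less and *NKX2-1* had no reads. Of the epithelial markers, *KRT18* averaged 41.2 FPKM in the controls and 85.2 in the *RRM2*-OE line, and *KRT8* 2.56 and 3.48. *KRT7* was slightly lower in the *RRM2*-OE line, at 1.05 to 1.30 FPKM in the controls and 0.980 to 1.03. *EPCAM*, *KRT19* and *CDH1* were at 0.125 or less. The 6 endothelial markers summed to 1.48 to 1.76 FPKM in the controls and 1.11 to 1.33 in the *RRM2*-OE line. Within that list *PECAM1* was lower in the *RRM2*-OE line (0.857 to 1.04 FPKM in the controls and 0.0268 to 0.0971), *ROBO4* (0.222 to 0.241 and 0.465 to 0.600) and *TEK* (0.224 to 0.297 and 0.353 to 0.475) were higher, *VWF* had 3 reads in all controls and 16 in all *RRM2*-OE libraries, *ESAM* overlapped between the groups and *CDH5* had a single read in all libraries together. The 5 mural markers summed to 3.12 to 3.43 FPKM in the controls and 3.77 to 3.89 in the *RRM2*-OE line. These mural sums count both entries that *RGS5* has among the deposited genes. The 5 leukocyte markers summed to 0.349 to 0.410 and 0.135 to 0.215, with *CD3E* at 0. The part of these differences in the results below was not tested.

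Of the 10 members, 8 were high enough to be tested, reaching 0.5 FPKM and 10 reads in 3 or more libraries. Each was tested on log2(FPKM + 0.1) with limma across all 13621 genes that met this minimum, the 8 members having met it in each of the 6 libraries, and every log2 fold change below is the *RRM2*-OE line over the controls on that scale, which understates the change of low genes. The groups differed widely. The threshold of 0.05 on adjusted p was passed by 67.6% of all tested genes, and 11.5% also changed by 1 or more on the log2 scale. Of the 8 members tested, 7 passed on adjusted p: *NOTCH1* and *JAG2* were higher, and *NOTCH3*, *JAG1*, *DLL1*, *HES1* and *HEY1* were lower in the *RRM2*-OE line. Of all tested genes, 34.9% passed as higher and 32.7% as lower. Past both thresholds were 3 members, *NOTCH1* (higher, as for 4.48% of all genes) and *DLL1* and *HEY1* (lower, as for 6.97%). The median log2 fold change of the 8 was -0.35, against 0.011 over all genes. All 8 members tested had groups that did not overlap, as had 72.2% of all tested genes. In bulk libraries, fewer cells expressing a gene and less RNA per cell cannot be told apart.

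**Figure D1:**
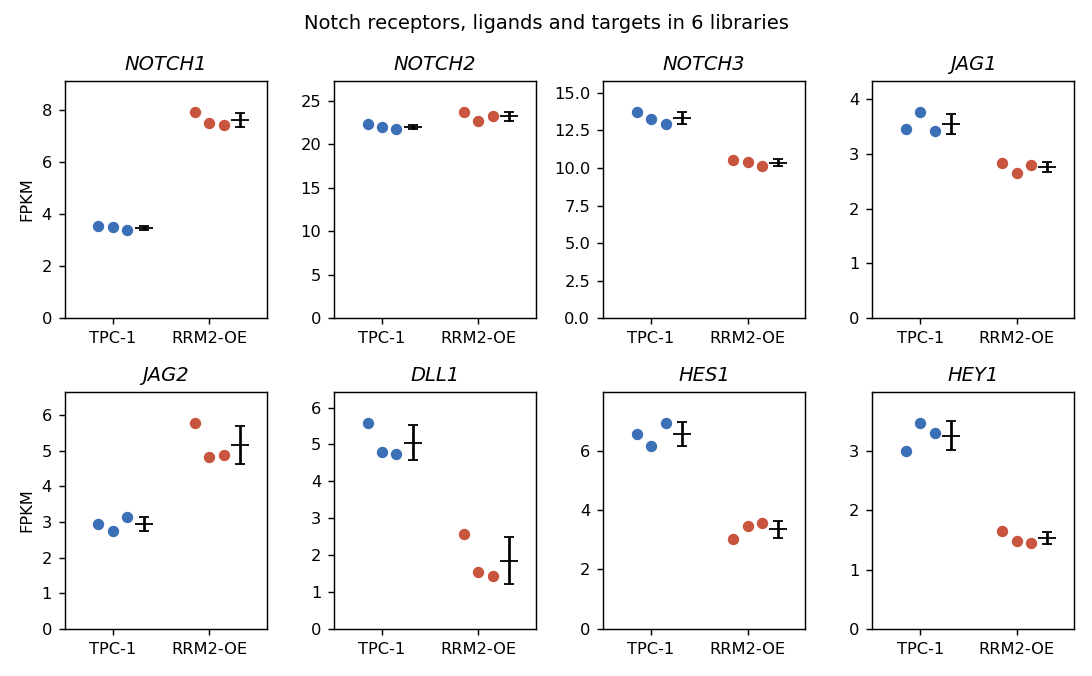
FPKM (y axis, from 0) of the 8 members that were tested, in 3 control libraries of wild strain TPC-1 (blue) and 3 of the *RRM2*-OE line (red). Points are libraries in replicate order and the black mark is the mean ± SD; *NOTCH1* and *JAG2* sit higher, and *DLL1*, *HES1* and *HEY1* lower, in all 3 red libraries, while the *NOTCH2* groups are close together.

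Among the receptors, *NOTCH1* rose, *NOTCH3* fell slightly and *NOTCH2*, the most abundant, did not pass the test. *NOTCH1* (ENSG00000148400, chromosome 9 from 136494433 to 136545786 of GRCh38, minus strand) is the receptor most often mutated in human cancers. It was at 3.55, 3.48 and 3.40 FPKM in control replicates 1 to 3 and at 7.92, 7.52 and 7.41 in the *RRM2*-OE line. The 2 groups were far apart and tight within themselves. The means were 3.48 ± 0.0735 and 7.62 ± 0.270 FPKM (SD, n = 3 each), a 2.19-fold increase, and the log2 fold change was 1.11 ± 0.0553 (SE; limma adjusted p = 1.16e-06). With a pseudocount of 1 it was 0.94, below the threshold on the fold change. Of all tested genes, 9.21% had a larger absolute log2 fold change.

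*NOTCH2* (ENSG00000134250, chromosome 1 from 119911553 to 120069626, minus strand) was at 22.3, 21.9 and 21.8 FPKM in the controls and at 23.7, 22.7 and 23.3 in the *RRM2*-OE line. The highest control was just under the lowest overexpressing library. The log2 fold change was 0.077, with a 95% interval of -0.00121 to 0.156, and the adjusted p was 0.0745 from limma. It passed with voom weights on the recovered reads (adjusted p = 0.0395) and was 0.020 with values scaled to library totals. *NOTCH2NLA*, a partial copy of *NOTCH2* in the same table, was at 0.360 and 0.285 FPKM (mean of each group), and how reads shared between the copies were counted is not stated, which leaves the *NOTCH2* level uncertain.

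*NOTCH3* (ENSG00000074181, chromosome 19 from 15159038 to 15200981, minus strand), the receptor known for its role in vascular smooth muscle, was at 13.7, 13.2 and 13.0 FPKM in the controls and at 10.6, 10.4 and 10.1 in the *RRM2*-OE line. All 3 overexpressing libraries were below all controls. The fold was small, 1.29-fold lower, with a log2 fold change of -0.36 ± 0.0418 (SE; limma adjusted p = 1.15e-04). About equal shares of all tested genes lay on either side of this size, since 51.0% had a larger absolute log2 fold change. *NOTCH4* (ENSG00000204301, chromosome 6), a receptor mainly of endothelium, had 3, 2 and 4 reads in the controls and 0, 2 and 1 in the *RRM2*-OE line. Both groups were at or near the limit of 3 reads (0.0180 to 0.0213 FPKM), so no fold was taken. An exon of *GPSM3* on the same strand covers 1.01% of its exon bases.

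The makeup of the receptor pool shifted between *NOTCH1* and *NOTCH3*. The summed FPKM of the 4 receptors was 38.8 ± 0.706 in the controls and 41.2 ± 0.858 in the *RRM2*-OE line (SD, n = 3 each). *NOTCH1* made up 8.92% to 9.01% of it in the control libraries and 18.1% to 18.8% in the *RRM2*-OE libraries. *NOTCH3* made up 34.0% to 34.7% and 24.8% to 25.6%. The share of *NOTCH2* was 56.3% to 57.1% and 55.8% to 57.0%, and the groups overlapped. These shares are taken within a library and do not depend on how libraries were scaled against each other. *NOTCH1* over *NOTCH3* went from 0.261 ± 0.00247 to 0.735 ± 0.0141 (SD, n = 3 each).

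The ligands moved in opposite directions, with *JAG2* higher and *DLL1* and *JAG1* lower. *JAG2* (ENSG00000184916, chromosome 14 from 105140981 to 105168824, minus strand) encodes Jagged-2. It was at 2.94, 2.76 and 3.14 FPKM in the controls and at 5.79, 4.82 and 4.88 in the *RRM2*-OE line. *RRM2*-OE replicate 1 was the highest, and every overexpressing library was above every control. The means were 2.95 ± 0.189 and 5.16 ± 0.543 FPKM (SD, n = 3 each), a 1.75-fold increase, with a log2 fold change of 0.78 ± 0.0902 (SE; limma adjusted p = 1.06e-04). It was 0.70 without *RRM2*-OE replicate 1. The exons of *AL512356.1* on the same strand cover 7.33% of the exon bases of *JAG2* and had no reads.

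*DLL1* (ENSG00000198719, chromosome 6 from 170282206 to 170306565, minus strand), the gene of Delta-like 1, had the largest absolute log2 fold change of the members. It was at 5.59, 4.79 and 4.75 FPKM in the controls, on 301, 260 and 244 reads, and at 2.57, 1.54 and 1.44 FPKM in the *RRM2*-OE line, on 120, 85 and 74 reads. All overexpressing libraries were below the controls, but they did not agree among themselves. Replicate 1 had an exact 95% Poisson interval of 2.13 to 3.08 FPKM, whereas those of replicates 2 and 3 were 1.23 to 1.90 and 1.13 to 1.81, so that replicate 1 stood above the others by more than counting error. Such intervals cover counting error only. The means were 5.04 ± 0.475 and 1.85 ± 0.628 FPKM (SD, n = 3 each), 2.73-fold lower, with a log2 fold change of -1.44 ± 0.198 (SE; limma adjusted p = 2.97e-04) and of -1.69 without that library. Only 4.82% of tested genes had a larger absolute log2 fold change.

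*JAG1* (ENSG00000101384, chromosome 20 from 10637684 to 10673999, minus strand), the gene of Jagged-1, was at 3.45, 3.77 and 3.42 FPKM in the controls and at 2.83, 2.66 and 2.79 in the *RRM2*-OE line. The groups did not overlap, and the difference was small. It was 1.28-fold lower, with a log2 fold change of -0.35 ± 0.0730 (SE; limma adjusted p = 0.00308), and 52.1% of tested genes had a larger absolute change.

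In each control library *DLL1* led the ligand pool, and in each overexpressing library *JAG2* did. *JAG2* made up 24.4% to 27.8% of the summed FPKM of the 3 ligands in the controls and 51.7% to 53.5% in the *RRM2*-OE line, and *DLL1* 42.0% to 46.6% and 15.8% to 23.0%. The share of *JAG1* was 28.8% to 33.3% and 25.3% to 30.7%, with overlapping groups. The ligand sum was 11.5 ± 0.389 FPKM in the controls and 9.77 ± 1.23 in the *RRM2*-OE line (SD, n = 3 each). *JAG2* over *JAG1* was 0.834 ± 0.0935 and 1.87 ± 0.155, and *JAG2* over *DLL1* was 0.588 ± 0.0684 and 2.92 ± 0.598 (SD, n = 3 each).

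**Figure D2:**
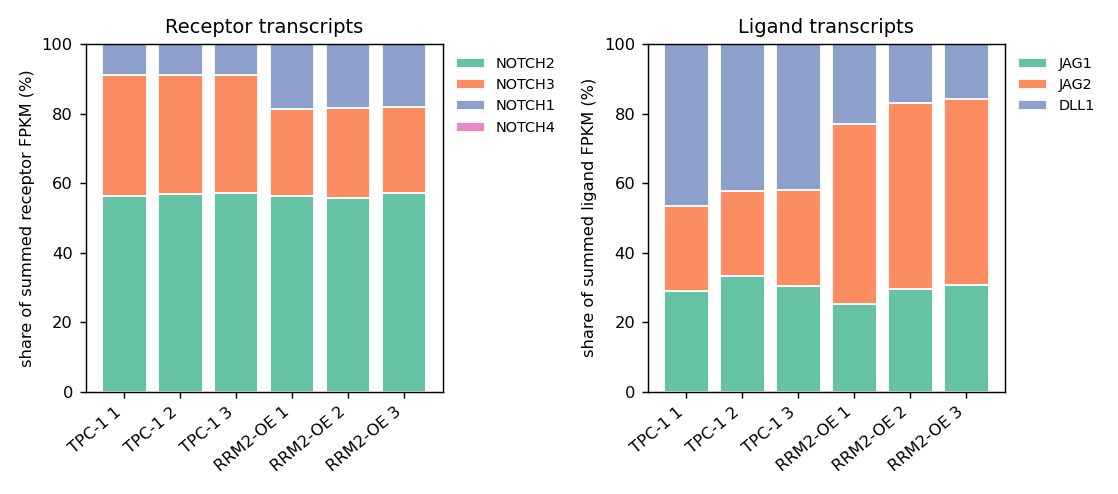
Share (%, y axis from 0 to 100) of each gene in the summed FPKM of the 4 receptors (left) and of the 3 ligands (right), one bar per library. *NOTCH1* takes 8.92% to 9.01% of the receptor sum in the controls and 18.1% to 18.8% in the *RRM2*-OE line, *JAG2* takes 24.4% to 27.8% and 51.7% to 53.5% of the ligand sum, and *NOTCH4* is too low to be seen.

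Both expressed target genes fell, the opposite direction to *NOTCH1*. *HES1* (ENSG00000114315, chromosome 3 from 194136145 to 194138732, plus strand), a basic helix-loop-helix repressor whose promoter with its 2 TGGGAA copies is printed above, was at 6.57, 6.14 and 6.94 FPKM in the controls and at 3.02, 3.45 and 3.56 in the *RRM2*-OE line. The lowest control lay well above the highest overexpressing library. The means were 6.55 ± 0.398 and 3.34 ± 0.287 FPKM (SD, n = 3 each), 1.96-fold lower. The log2 fold change was -0.95 ± 0.0809 (SE; limma adjusted p = 1.88e-05), short of the threshold on the fold change, which it passed with values scaled to library totals (-1.01).

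*HEY1* (ENSG00000164683, chromosome 8 from 79764010 to 79767863, minus strand), a repressor related to *HES1*, was at 3.00, 3.48 and 3.30 FPKM in the controls and at 1.65, 1.48 and 1.46 in the *RRM2*-OE line. The groups did not overlap. The means were 3.26 ± 0.239 and 1.53 ± 0.104 FPKM (SD, n = 3 each), 2.13-fold lower, with a log2 fold change of -1.04 ± 0.0938 (SE; limma adjusted p = 2.56e-05). It was just inside the threshold on the fold change, and -0.998 without control replicate 2 and -0.75 with a pseudocount of 1. *HEYL* (ENSG00000163909, chromosome 1), a relative of *HEY1*, had no read in any of the 6 libraries, which allows up to 0.0478 to 0.0567 FPKM per library at a limit of 3 reads.

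The ratio of *HES1* to *HEY1* overlapped between the groups, whereas the ratio of each to *NOTCH1* was lower in the *RRM2*-OE line. *HES1* over *HEY1* was 1.77 to 2.19 in the controls and 1.83 to 2.45 in the *RRM2*-OE line. *HES1* over *NOTCH1* was 1.88 ± 0.141 and 0.440 ± 0.0524, and *HEY1* over *NOTCH1* was 0.938 ± 0.0810 and 0.201 ± 0.00652 (SD, n = 3 each). *HES1* over *NOTCH2*, the receptor that did not pass the test, was 0.298 ± 0.0194 and 0.144 ± 0.0146.

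**Figure D3:**
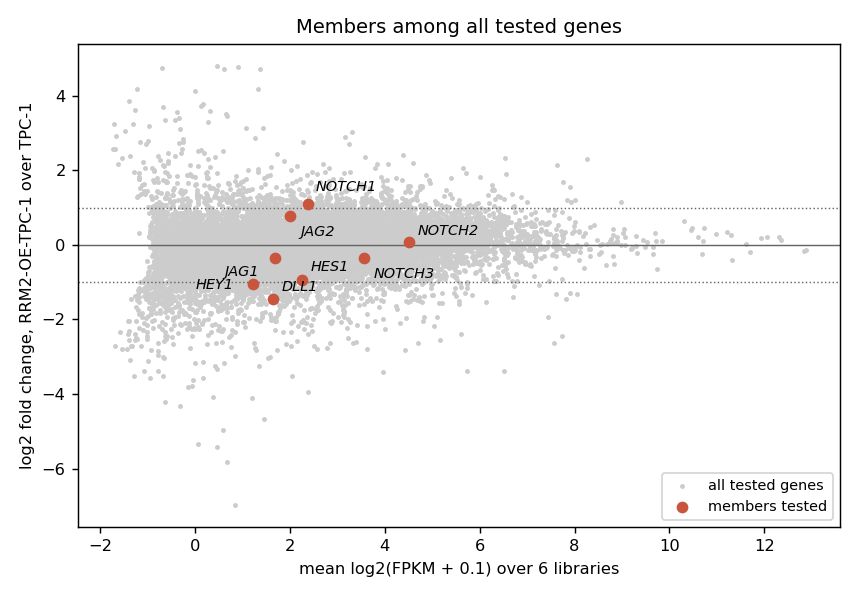
Log2 fold change (y axis) against the mean log2(FPKM + 0.1) over 6 libraries (x axis) of all 13621 tested genes (grey) and the 8 tested members (red); dotted lines mark a log2 fold change of -1 and 1. *NOTCH1* lies at 1.11, *HEY1* and *DLL1* lie below the lower line at -1.04 and -1.44, and *NOTCH2*, the most abundant member, lies at 0.077.

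In the controls, the order of levels from the top was *NOTCH2*, *NOTCH3*, *HES1*, *DLL1*, *JAG1*, *NOTCH1*, *HEY1* and *JAG2*. The ranges of *JAG1* and *NOTCH1*, of *NOTCH1* and *HEY1*, and of *HEY1* and *JAG2* overlapped, so these neighbours were not separated by their spread. In the *RRM2*-OE line the order was *NOTCH2*, *NOTCH3*, *NOTCH1*, *JAG2*, *HES1*, *JAG1*, *DLL1* and *HEY1*, and of these neighbours *DLL1* and *HEY1* overlapped. *NOTCH4* and *HEYL* were at the bottom in both groups.

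The rest of the pathway was read from 58 other genes listed by role, of which 53 were tested. On adjusted p, 8 passed as higher and 29 as lower, and 16 did not pass, so that 69.8% of the list passed, near the 67.6% of all tested genes. By direction, 15.1% were higher and 54.7% lower, against 34.9% and 32.7% of all tested genes. Past both thresholds were 1 higher and 7 lower, or 15.1% against 11.5%. The 29 and the 7 lower include *MAML3*, which met the minimum for testing through the controls alone. Its fall was thus built into its selection, and its part in these counts is a description. Their median log2 fold change was -0.19, against 0.011 over all genes.

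Of the other ligands, *DLL4* and *DLK1* were not tested, with 6 reads and none in all libraries together. *DLK2*, which encodes a Delta-like protein without the domain that activates receptors, was at 4.35 ± 0.671 FPKM in the controls and 2.73 ± 0.132 in the *RRM2*-OE line (SD, n = 3 each), with a log2 fold change of -0.64 (limma adjusted p = 0.00134), and it shares exon bases with *ABCC10* (2.62 FPKM) on the opposite strand. *DLL3*, a ligand that acts inside the cell, was low, at 0.408 ± 0.162 and 0.588 ± 0.0421 FPKM. Its log2 fold change of 0.48 did not pass (limma adjusted p = 0.107) but did without control replicate 1, at 0.73 (adjusted p = 0.0149). It met the minimum in 1 control and all 3 *RRM2*-OE libraries.

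Of the 5 genes that glycosylate the receptors, 2 rose and 1 fell (60.0% passed, against 67.6% of all tested genes). *LFNG*, a Fringe enzyme that extends the fucose on the receptor, was at 8.38, 8.47 and 7.69 FPKM in the controls and at 18.5, 17.0 and 16.9 in the *RRM2*-OE line. Its libraries separated fully between the groups, 2.14-fold apart, with a log2 fold change of 1.09 ± 0.0556 (SE; limma adjusted p = 1.31e-06). Its mean was the highest of the 3 Fringe genes in both groups, but in the controls its range overlapped that of *RFNG*. *POFUT1*, which adds that fucose, rose from 13.5 ± 0.491 to 17.7 ± 0.220 FPKM (SD, n = 3 each). *RFNG* fell from 7.37 ± 0.896 to 5.84 ± 0.282 FPKM (log2 fold change -0.33, limma adjusted p = 0.0112), a call that was lost without both libraries numbered 1 (adjusted p = 0.0591). Of its exon bases, 21.6% are shared with *GPS1* (13.7 FPKM) on the opposite strand, and strand use in counting is not stated. *MFNG* was at 0.865 ± 0.154 and 0.915 ± 0.261 FPKM, with overlapping groups.

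Of the 9 genes that cut the receptor, 5 fell and 1 rose, none past the threshold on the fold change; the 66.7% that passed is close to the 67.6% of all tested genes. *ADAM10*, the protease of the first ligand-induced cut, went from 17.2 ± 0.482 to 13.1 ± 0.0905 FPKM (log2 fold change -0.39, limma adjusted p = 3.71e-05). *FURIN*, which cleaves the receptor during maturation, went from 23.0 ± 1.87 to 17.2 ± 0.223 FPKM (-0.42, adjusted p = 3.08e-04; SD, n = 3 each). *ADAM17*, another ADAM protease gene, fell as well (-0.46, adjusted p = 6.23e-04). Of the gamma-secretase subunits reported here, *APH1B* fell (-0.61, adjusted p = 3.10e-04) and *PSENEN* rose (0.35, adjusted p = 0.00795). The subunits *NCSTN*, *APH1A* and *PSEN2* did not pass.

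Of the 9 genes of the nuclear complex, 6 fell and none rose (66.7% passed, against 67.6% of all tested genes, of which 32.7% were lower). *RBPJ*, the DNA-binding protein itself, did not pass: it was at 14.1, 14.3 and 14.5 FPKM in the controls and at 14.6, 15.4 and 15.5 in the *RRM2*-OE line (log2 fold change 0.081, limma adjusted p = 0.105, and 0.0487 when *RRM2*-OE replicate 1 was left out). *MAML3*, a Mastermind coactivator, was at 1.51, 1.48 and 1.54 FPKM in the controls and at 0.434, 0.425 and 0.457 in the *RRM2*-OE line. That was 3.44-fold lower, with a log2 fold change of -1.58, or -0.80 with a pseudocount of 1. It met the minimum for testing through the controls alone, so a difference in this direction was built into its selection and its call, 1 of the 6, is a description. *MAML3* shares exon bases with *MGST2* (2.42 FPKM) on the opposite strand. The histone acetyltransferase genes *CREBBP*, *EP300* and *KAT2B* fell, with log2 fold changes of -0.66, -0.58 and -0.65 (limma adjusted p = 1.91e-05, 3.24e-05 and 3.70e-05).

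Of the 11 corepressor genes, 5 fell and 1 rose (54.5% passed, below the 67.6% of all tested genes). *TLE2*, a Groucho corepressor that HES proteins recruit, was at 10.2, 9.76 and 9.01 FPKM in the controls and at 2.90, 3.11 and 2.81 in the *RRM2*-OE line. The groups were 3.29-fold apart, and the log2 fold change was -1.68 ± 0.0680 (SE; limma adjusted p = 4.12e-07). *TLE3* fell by a log2 fold change of -0.73, *NCOR1* by -0.52 and *SPEN*, a corepressor that binds RBPJ, by -0.47 (adjusted p = 3.11e-05, 5.20e-05 and 1.31e-05 from limma), while *TLE1* and *TLE4* did not pass.

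Of the 12 tested genes of receptor endocytosis and turnover, 3 rose and 8 fell (91.7% passed, against 67.6% of all tested genes). *DTX1*, a Deltex ubiquitin ligase gene that is itself a known Notch target, was at 2.46, 2.47 and 1.86 FPKM in the controls and at 0.994, 0.985 and 0.773 in the *RRM2*-OE line (log2 fold change -1.21, limma adjusted p = 1.70e-04; -0.76 with a pseudocount of 1). *DTX4* went from 7.14 ± 0.198 to 3.21 ± 0.141 FPKM (-1.13, adjusted p = 1.54e-06; -0.95 with a pseudocount of 1) and *DTX3L* from 14.5 ± 0.357 to 11.5 ± 0.266 FPKM (-0.33, adjusted p = 1.39e-04), and *DTX3* fell as well (-0.64, adjusted p = 0.00550). *DTX2*, another Deltex gene, went the other way, from 3.36 ± 0.220 to 5.31 ± 0.175 FPKM (0.65, adjusted p = 7.25e-05; SD, n = 3 each). *NUMBL*, a relative of the Notch inhibitor *NUMB*, rose by a log2 fold change of 0.35 (adjusted p = 0.00168). *NUMB* itself fell slightly (-0.19, adjusted p = 0.0160). *NEURL1* was below the minimum for testing.

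**Figure D4:**
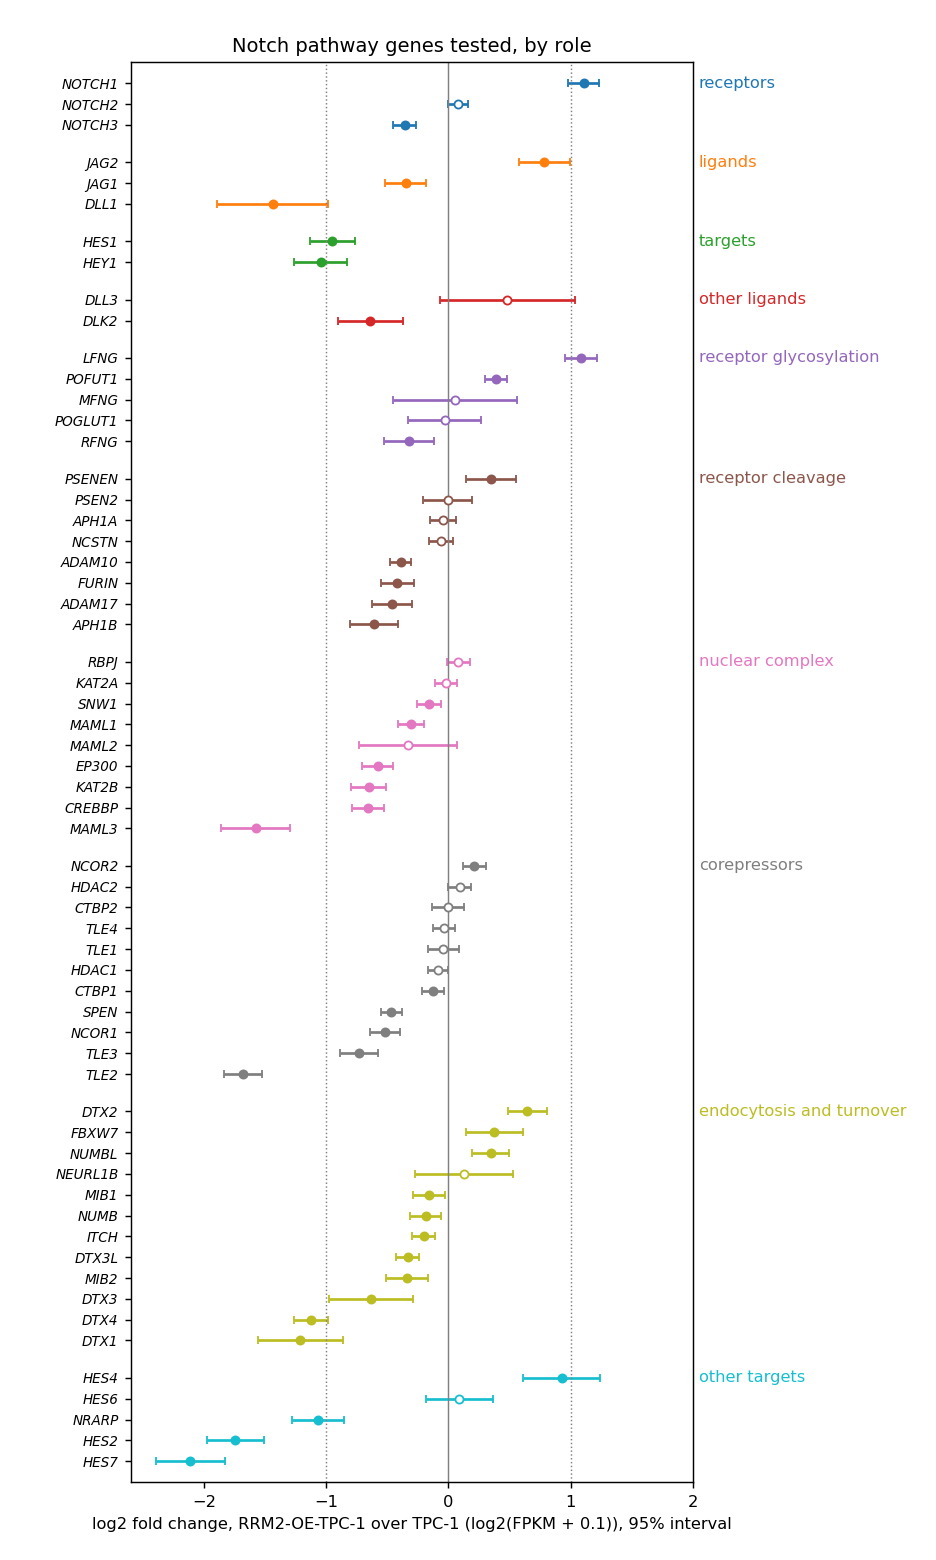
Log2 fold change of the *RRM2*-OE line over the controls (x axis) with its 95% interval from limma for the 8 tested members and all but 1 of the 53 other tested Notch pathway genes, grouped and coloured by role. Filled points passed the threshold of 0.05 on adjusted p, open points did not; *NOTCH1* and *LFNG* lie right of the dotted line at 1, and *DLL1*, *HEY1*, *MAML3*, *TLE2*, *DTX1*, *DTX4*, *NRARP*, *HES2* and *HES7* lie left of the one at -1.

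The last list held *NRARP* and other HES and HEY family genes, of which not all are established Notch targets. Of the 5 tested, 3 fell, 1 rose and 1 did not pass (80.0% passed, against 67.6% of all tested genes). *NRARP*, a small feedback inhibitor of the Notch complex and a known target, was at 3.89, 3.76 and 4.15 FPKM in the controls and at 1.99, 1.65 and 1.84 in the *RRM2*-OE line. The groups did not overlap, and its change was close to those of *HES1* and *HEY1*, with a log2 fold change of -1.07 ± 0.0914 (SE; limma adjusted p = 1.93e-05), or -0.80 with a pseudocount of 1. *HES7*, known from the segmentation clock, was at 3.66, 3.72 and 3.86 FPKM in the controls and at 0.778, 0.938 and 0.672 in the *RRM2*-OE line. This was 4.71-fold lower and the largest change of all 61 members and other pathway genes tested, on 20 to 30 reads in each *RRM2*-OE library (log2 fold change -2.11, limma adjusted p = 2.43e-06). *HES2* was 3.61-fold lower, at 3.32 ± 0.249 and 0.919 ± 0.0575 FPKM (SD, n = 3 each; -1.75, adjusted p = 2.30e-06).

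*HES4* went against the others. It was at 6.70, 6.17 and 9.26 FPKM in the controls and at 15.0, 13.7 and 13.1 in the *RRM2*-OE line, with control replicate 3 well above the other controls and below every overexpressing library. The log2 fold change was 0.93 ± 0.137 (SE; limma adjusted p = 4.47e-04), and 1.10 without control replicate 3. *HES1* and *HES4*, whose printed promoters each hold the letters GTGGGAA, thus moved in opposite directions. *HES6*, a relative that opposes *HES1*, was at 3.70 ± 0.518 and 3.93 ± 0.462 FPKM, and its log2 fold change of 0.089 did not pass (95% interval -0.188 to 0.365, adjusted p = 0.533). *HES5* and *HEY2* had 1 and 2 reads in all libraries together.

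**Figure D5:**
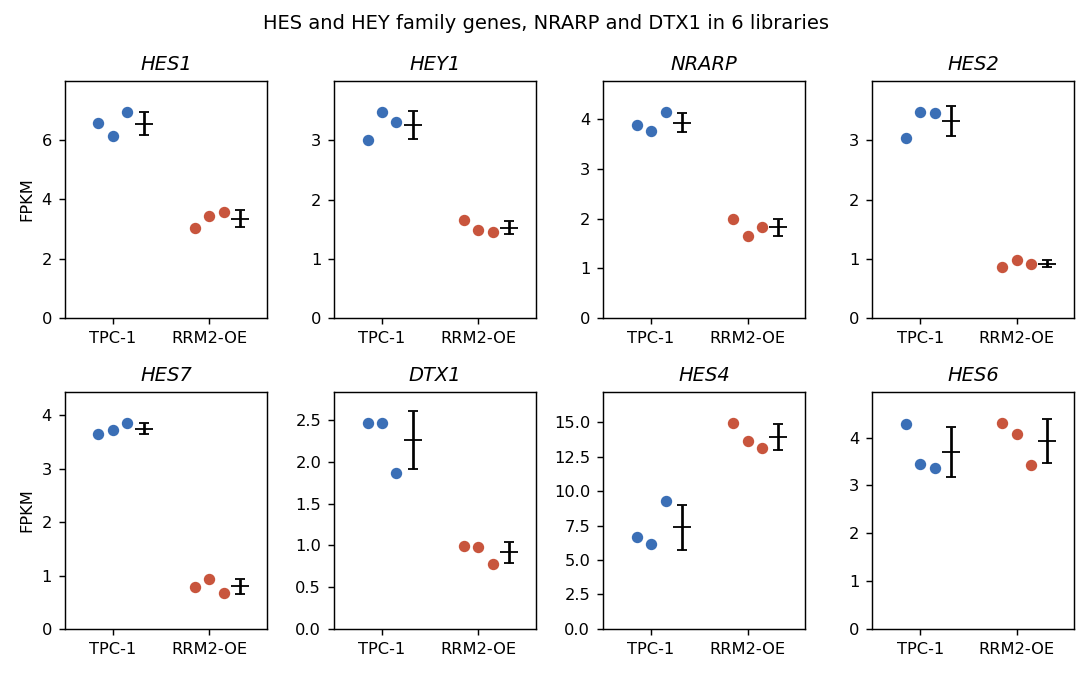
FPKM (y axis, from 0) of *HES1*, *HEY1*, *NRARP*, *HES2*, *HES7*, *DTX1*, *HES4* and *HES6* in 3 libraries of TPC-1 (blue) and 3 of the *RRM2*-OE line (red), with the mean ± SD in black. The first 6 genes sit lower in every *RRM2*-OE library, *HES4* sits higher, and the *HES6* groups overlap.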

How the data were processed

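RNA of 6 libraries was sequenced. Per the study's methods, the authors used fastp to clean the reads, HISAT2 2.0.5 to align and featureCounts 1.5.0 to count them per gene, divided by gene length and depth and deposited FPKM values; strand use is not stated. The submitters' processing notes name GRCh38.p14, and all 58735 gene IDs had the positions of GENCODE 29. The methods describe poly(A) selection, whereas the labels name RNase R digestion of linear RNA after removal of ribosomal RNA. Which of these applies is not known, and it bears on whether the values can be read as mRNA levels.

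FPKM times gene length was a whole multiple of 1 step per library (tolerance 0.01 reads) for 100% of values above 0. This gave reads, 14317091 to 17084067 per library. The depth divisor in the FPKM was not the total of these reads. It was 1.031, 1.049 and 1.053 times that total in control replicates 1 to 3. In the *RRM2*-OE line it was 1.010, 1.003 and 0.997 times. Scaling to library totals instead shifted the log2 fold changes by a median of -0.057. limma 3.58.1 (R 4.3.3; lmFit, eBayes with trend) was run on log2(FPKM + 0.1), with Benjamini-Hochberg adjustment and no block, and checked on simulated data. Python 3.11.15 did the rest. Named were the members, *RRM2* and, per role list, genes past both thresholds and up to 3 others with the smallest adjusted p; 1 gene of the receptor cleavage list is counted there but not reported by itself here. The few other genes named were chosen after their values were seen. Members, lists and settings were chosen with earlier results of these data known. An exact permutation test of 3 against 3 cannot give a two-sided p below 0.1, so none was used.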

Additional observations from a re-analysis of the deposited data

How the results depend on the processing

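The same 7 members passed on adjusted p under each of these settings (no filter, the FPKM minimum alone, pseudocounts of 1 and 0.01, library totals, median-of-ratios factors, protein-coding genes only, the replicate block, each library left out), and 8 with voom on recovered reads, chosen after seeing the data. The median-of-ratios run was nearly the main run (median shift of log2 fold changes 0.00025), so it was no separate check of the scaling. Past both thresholds were 2 to 3 members with each library left out. With values scaled to library totals, *HES1* passed the threshold on the fold change (-1.01). In that setting 537 of all genes were higher and 1108 lower past both thresholds, against 610 and 950 in the main run. With a pseudocount of 1 the counts past both thresholds were 1 member in place of 3, 4 other pathway genes in place of 8 and 716 of all genes in place of 1560; the larger pseudocount shrinks folds of low genes by construction. The log2 fold change of *MFNG*, not called, changed sign with libraries left out (-0.13 to 0.25; -0.27 without both libraries numbered 1, an alternative added after seeing the data, under which the call of *RFNG* was lost at an adjusted p of 0.0591 and *DLL3* passed at 0.0428). With no filter on low values, 2281 of 30958 genes passed both thresholds. Replicate numbers are not stated to pair cultures, and same-numbered libraries did not deviate together (correlations -0.055 to -0.0060); with the replicate block, 7 members and 36 other pathway genes passed on adjusted p, 3 and 8 on both, and 8934 and 1566 of all genes. The planned count models and the trimmed-mean scaling were not run, since the deposited unit is FPKM. *NOTCH4* and *HEYL* were too low for a difference to be detectable at this depth.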

Other observations

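Other extracellular proteins that have been described to bind Notch receptors or their ligands were read from a list of 9 genes written after the data had been seen. *DNER* and *MFAP5* met the minimum for testing through the *RRM2*-OE libraries alone, so a rise was built into their selection and their values are given as a description, with no test. Of the 3 others tested, *CTGF* rose, *EGFL7* fell and *MFAP2* did not pass, where 67.6% of all tested genes passed. *CNTN1*, *CNTN6*, *THBS2* and *NOV*, also on the list, were below the minimum for testing. *DNER*, a neuronal membrane protein with Delta-like repeats, was at 0.198, 0.227 and 0.207 FPKM in TPC-1 and at 1.51, 1.42 and 1.24 in *RRM2*-OE-TPC-1, on 13 to 15 and 78 to 96 reads per library. The groups were 6.62-fold apart (log2 fold change 2.26, or 0.98 with a pseudocount of 1). *CTGF*, a matricellular protein, rose from 40.4 ± 1.66 to 73.1 ± 3.35 FPKM (SD, n = 3 each; log2 fold change 0.85, limma adjusted p = 1.59e-06), and *EGFL7*, a secreted protein that binds Notch receptors, fell from 44.0 ± 0.978 to 35.8 ± 2.36 FPKM (-0.30, adjusted p = 9.36e-04). At these levels *EGFL7* and *CTGF* were each above every canonical ligand in the same libraries. *MFAP5*, a microfibril protein reported to bind Jagged-1, was at 0.232, 0.107 and 0.162 FPKM in TPC-1 and at 6.80, 7.36 and 7.51 in *RRM2*-OE-TPC-1, so that in the overexpressing libraries it was above *JAG2*, *JAG1* and *DLL1*.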
